A study of Mus musculus with 17 samples.

Results

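The comparison of whole kidneys at 12 months with whole kidneys at 3 months took in 6 of the 17 samples of the series, which were all the samples that the labels describe as kidney of these ages, and every gene whose identifier, without its version, was counted at both ages. There were 53772 such genes, of which 17067 passed edgeR's filter on low counts and were tested. Each age had 3 mice, all wild type, of the strain labelled C57BL/6Rj, without treatment. The study's methods call them male C57BL/6JRj mice. A portion of the right kidney of each mouse was frozen for RNA, and kidneys with visible or histological pathology had been left out by the study. Kidneys of 3 mice at 24 months share the fit and are shown beside the others. The study's methods describe a single pool of 9 barcoded libraries, sequenced in 2 runs whose reads were joined, without naming the libraries. Dates of collection and RNA extraction are not given in the sources used here, and age cannot be told apart from a batch in these steps.

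Whole kidney RNA comes mostly from the tubule, where the proximal segment reabsorbs the filtrate and is followed by the loop of Henle. The collecting duct sets the final water and salt content under vasopressin and aldosterone. Urothelium lines the renal pelvis, and blood-derived cells lie between the tubules. MHC class II molecules present peptides to CD4+ T cells, mainly on dendritic cells, macrophages and B cells, and are of interest in kidney aging because tubular cells can also express them. In bulk RNA a difference in the number of cells of a type and a difference in RNA per cell cannot be told apart.

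The gene counts of a kidney summed to 37311247 to 49471409 at 3 months, 54097073 to 59718029 at 12 months and 62761670 to 66894790 at 24 months. Expression is given as CPM, TMM-scaled counts relative to library size, always for replicates 1, 2 and 3 in that order. The kidney's own markers were present in all 9 kidneys, with Slc34a1, the phosphate transporter of the proximal tubule, at 2503 to 7530.1 CPM, and Umod, the uromodulin of the thick ascending limb, at 1988 to 3807 CPM. The 3-month kidneys had been counted on another gene set than the older kidneys: 2351 of the shared identifiers had another version, 834 shared genes overlapped a gene that only 1 set holds, and 50921 shared genes were free of both and are called counted alike below. Of the tested genes, 15295 were counted alike and 1772 were not. Of 9 skeletal muscle markers 2 were tested, and they summed to 1.41 to 2.15 CPM. Of 9 adrenal markers only Star was tested, at 0.158 to 0.691 CPM. Tested markers of hepatocytes and pancreas summed to 164 to 257 CPM. Erythroid markers summed to 316 to 919 CPM and adipocyte markers to 997 to 2170 CPM. Kidneys within an age differed in the RNA of some gene groups. At 3 months replicate 2 had the least RNA of urothelial and heat shock genes, and ribosomal protein genes summed to 16854, 10850 and 24316 CPM at 3 months and to 12535, 20076 and 12014 CPM at 12 months.

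Transcripts of 209 genes rose between 3 and 12 months and those of 232 genes fell, by edgeR's quasi-likelihood test, where a call needed a Benjamini-Hochberg adjusted p below 0.05 and a log2 fold change beyond 0.5 in size. Below, ± after a log2 fold change is a standard error derived from the test, with n = 3 kidneys per age. It is the size of the log2 fold change divided by the square root of the test's F statistic. That statistic uses a spread estimated from all 9 kidneys. The calls were 1.22% and 1.36% of the tested genes, 2.58% in both directions. Of the genes that rose, 148 were protein coding, and the median log2 fold change was 1.49. Of those that fell, 223 were protein coding, the median was -1.89, and 111 fell by more than 2 on the log2 scale. The median over all tested genes was 0.0044. All 441 genes separated the 3 kidneys of 12 months from the 3 of 3 months. They were picked by a test on the same values, so the separation adds no support to the calls. Of all tested genes 20.3% separated the ages, 10.9% being higher and 9.4% lower in every 12-month kidney. In the 24-month kidneys the mean of 127 of the 209 genes lay between the means of the younger ages, that of 70 lay at or past the 12-month mean, and that of 12 lay below the 3-month mean. Of the 232 genes that fell, 191 had a 24-month mean between the other ages, 23 were as low or lower at 24 months, and 18 were above their 3-month mean. Between 12 and 24 months 74 genes were higher at 12 months and 153 lower, 0.434% and 0.896% of the tested genes and 1.33% together, and 322 rose and 77 fell between 3 and 24 months, 1.89% and 0.451%. The counts rested on single kidneys. Without 3-month replicate 2 there were 249 rises and 467 falls, which kept 144 and 214 of the calls, and without 12-month replicate 3 there were 31 and 21. DESeq2 called 531 rises and 576 falls, and a fit of the 6 kidneys alone called 38 and 26.

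Of the MHC class II genes 3 rose. All 11 members of the list had a log2 fold change above 0, with a median of 0.85, and 3 of them, H2-Aa, H2-Ab1 and H2-Eb1, rose past the test, beside 1.22% of all genes. For 9 of the 11 every 12-month kidney lay above every 3-month kidney, beside 10.9% of all genes. These 3 genes code for the chains of the classical molecules, H2-Aa and H2-Ab1 for the alpha and beta chain of I-A and H2-Eb1 for the beta chain of I-E. Their promoters are known for an X and Y box that bind the factors with which CIITA works, and the letters of the Y box, CCAAT, were searched for on both strands. Promoter sequences of H2-Aa and H2-Eb1 were found in RefSeq (GRCm38.p6) and are shown from 250 bases before the start to 30 after it, with matches in capitals, ATTGG being CCAAT on the other strand. The H2-Aa promoter lies at chr17:34287794-34288073, minus strand, and the H2-Eb1 promoter at chr17:34305617-34305896, plus strand.
H2-Aa promoter: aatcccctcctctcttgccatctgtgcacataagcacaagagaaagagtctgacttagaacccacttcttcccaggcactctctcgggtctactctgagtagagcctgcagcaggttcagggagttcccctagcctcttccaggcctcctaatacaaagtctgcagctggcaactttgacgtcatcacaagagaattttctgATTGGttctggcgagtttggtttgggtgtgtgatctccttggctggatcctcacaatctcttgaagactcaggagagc
H2-Eb1 promoter: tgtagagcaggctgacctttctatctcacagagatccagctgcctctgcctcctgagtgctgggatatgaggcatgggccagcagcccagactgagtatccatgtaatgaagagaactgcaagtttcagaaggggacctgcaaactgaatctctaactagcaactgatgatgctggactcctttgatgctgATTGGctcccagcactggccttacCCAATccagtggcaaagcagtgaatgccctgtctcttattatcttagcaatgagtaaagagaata
The match in H2-Aa starts at base -48 from the gene's start, and those in H2-Eb1 at -59 and -35. Among all 32851 promoters, searched to 50 bases after the start, 37.4% hold the same letters.

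H2-Aa (ENSMUSG00000036594.15, chr17:34282744-34287823 of GRCm38 on the minus strand) was at 54.6, 61.1 and 77.0 CPM at 3 months and at 117, 139 and 125 CPM at 12 months, 0.98 ± 0.179 in log2 fold change (adjusted p = 0.0319). H2-Ab1 (ENSMUSG00000073421.6, chr17:34257689-34269419 of GRCm38 on the plus strand) went from 74.9, 83.5 and 96.2 CPM to 141, 154 and 158 CPM, 0.83 ± 0.167 in log2 fold change (adjusted p = 0.0396). H2-Eb1 (ENSMUSG00000060586.11, chr17:34305867-34316674 of GRCm38 on the plus strand) went from 60.4, 63.3 and 76.4 CPM to 117, 124 and 124 CPM, 0.87 ± 0.163 in log2 fold change (adjusted p = 0.0347). The ages do not overlap for any of the 3, and the folds were 1.97, 1.78 and 1.82. At 24 months they were at 121 to 162, 141 to 195 and 121 to 166 CPM, and the log2 difference of 12 from 24 months was -0.12, -0.10 and -0.19 (adjusted p = 0.753, 0.770 and 0.590). Against 3 months the 24-month kidneys were higher for the 3 genes by 1.10, 0.93 and 1.06 on the log2 scale, each past the test. Cd74, the invariant chain that escorts these molecules, was at 125, 182 and 122 CPM at 3 months and 289.9, 189 and 317 CPM at 12 months, 0.89 ± 0.259 in log2 fold change (adjusted p = 0.117). Every 12-month kidney was above every 3-month kidney, but the edgeR test was not passed. DESeq2 gave Cd74 an adjusted p of 0.0478, while edgeR called it in 0 of the 6 fits that leave out a kidney. Ciita, the master activator of the class, had 3.20, 4.14 and 3.89 CPM and then 4.42, 6.51 and 5.67 CPM, 0.56 (adjusted p = 0.181). H2-Eb2 had the largest log2 fold change, 1.99 (adjusted p = 0.0717), at under 1 CPM, and H2-DMb2, part of the peptide editor H2-DM, the smallest, 0.34 (adjusted p = 0.602).

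**Figure D1:**
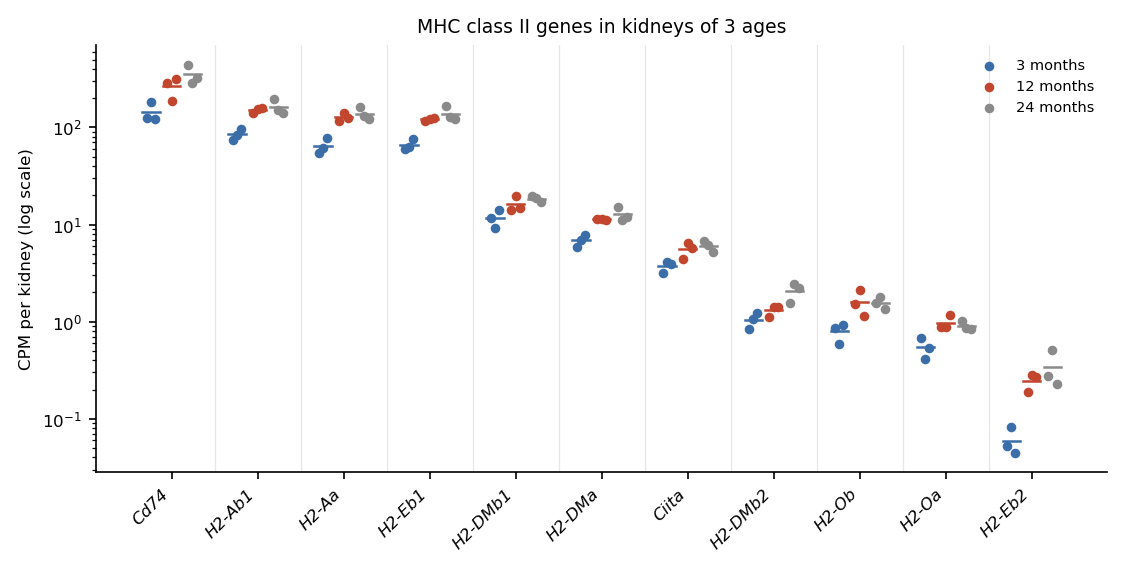
CPM of the 11 MHC class II genes (vertical axis, log scale) in each kidney of 3, 12 and 24 months, with short lines for the mean of 3 kidneys. For H2-Aa, H2-Ab1 and H2-Eb1 the 12-month kidneys lie above the 3-month kidneys and close to those of 24 months.

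The sum of the 11 genes was 338, 413 and 400.3 CPM at 3 months, 698, 647 and 759 CPM at 12 months and 1010.0, 740.5 and 748 CPM at 24 months. Of the members, 10 were not counted alike at the 2 ages, and Ciita was the exception. Except for H2-DMa they differed in the version of the identifier without overlapping a gene of 1 set, and of all 1263 tested genes of that kind 4.28% were called, with a median log2 fold change of 0.0142, so that gene set and age cannot be told apart for them. The calls of H2-Aa, H2-Ab1 and H2-Eb1 also rested on single kidneys, since at most 2 of the 3 were called with any kidney left out, with adjusted p up to 0.182. A fit of the compared ages alone and a fit with a replicate block called 0 of the 3, while DESeq2 called all 3 among 6 of the 11 members, Cd74 included.

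Single markers of T cells, B cells, macrophages and dendritic cells rose. In the T and NK cell list 23 of 24 tested genes had a log2 fold change above 0, with a median of 1.35, and 2 of the 24 rose, beside 1.22% of all genes, Cd3g among them. Cd3g, a chain of the T cell receptor complex, went from 0.315, 0.471 and 0.382 CPM to 0.954, 1.22 and 0.810 CPM, 1.34 ± 0.263 in log2 fold change (adjusted p = 0.0374). These levels are near or under 1 CPM, with 12 to 74 counts per kidney. In the list of B and plasma cells 3 of 20 genes rose, beside the same 1.22%: Cd79a, the signalling chain of the B cell receptor, Ighd and Igkc. Cd79a went from 0.158, 0.246 and 0.292 CPM to 0.989, 1.04 and 1.003 CPM, 2.10 ± 0.337 in log2 fold change (adjusted p = 0.0221). Igkc, the constant part of the kappa light chain, went from 4.10, 1.21 and 6.21 CPM to 22.4, 125 and 150.04 CPM, 4.70 ± 0.979 in log2 fold change (adjusted p = 0.0448), with the 12-month kidneys far apart from each other. Ighd had a log2 fold change of 2.23 (adjusted p = 0.0336). Mzb1, a chaperone of plasma cells that was not counted alike, had -1.12 (adjusted p = 0.238). Without 3-month replicate 1, 12-month replicate 1 or 12-month replicate 3, and with the compared ages alone, 0 of the calls of these lists were kept, and Ighd and Igkc were called in 0 of the 6 fits that leave out a kidney.

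Immunoglobulin segments made up 18 of the 209 rises. Of 128 immunoglobulin and T cell receptor segments tested 127 had a log2 fold change above 0, beside 50.5% of all genes, with a median of 5.46. Of these segments 18 rose, beside 1.22% of all genes, and the 18 that rose had log2 fold changes of 2.23 to 7.54. Their summed level was 15.1, 8.66 and 21.7 CPM at 3 months and 81.2, 390 and 520 CPM at 12 months, so the ages did not overlap but the 12-month kidneys differed widely, replicate 1 being the lowest. At 24 months it was 196, 1322 and 434 CPM. Reads of these near-identical segments may have been divided among them by the counting.

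Of myeloid and general leukocyte markers, Cd83, Mpeg1 and Cd37 rose. Cd83, a surface protein of activated dendritic and B cells, went from 1.31, 1.13 and 1.69 CPM to 3.28, 6.48 and 3.69 CPM, 1.70 ± 0.324 in log2 fold change (adjusted p = 0.0362), and was the only called gene of 11 dendritic cell genes, beside 1.22% of all genes, the share that stands beside each count of rises in these lists. Mpeg1, the pore-forming perforin-2 of macrophages, went from 9.48, 11.8 and 12.3 CPM to 24.1, 25.9 and 26.1 CPM, 1.18 ± 0.212 in log2 fold change (adjusted p = 0.0301), and was not counted alike. It was the only called gene of 19 macrophage and monocyte genes, whose median was 0.57. Cd37, a tetraspanin of B cells, rose with 1.27 (adjusted p = 0.0446) among 12 general leukocyte genes. Ptprc, the pan-leukocyte CD45, was at 4.41, 4.40 and 7.06 CPM at 3 months and 7.10, 14.0 and 7.14 CPM at 12 months, 0.83 (adjusted p = 0.256), and Adgre1, a surface receptor of macrophages, was at 3.36, 3.01 and 4.79 CPM and 4.25, 5.30 and 4.79 CPM, 0.36 (adjusted p = 0.602). Of 23 tested chemokine ligands 2 rose, beside 1.22% of all genes. Ccl5, which attracts T cells, rose with 1.32 (adjusted p = 0.0396) and Cxcl14 with 1.22 (adjusted p = 0.0366), and the list's median was 0.000117. Cd81, a tetraspanin, had -0.16 (adjusted p = 0.643), and Mif, a ligand of CD74, had -0.37 (adjusted p = 0.341). Mpeg1, Cd37, Ccl5 and Cxcl14 were each called in 1 of the 6 fits that leave out a kidney, the one without 3-month replicate 2, and Cd83 in 0. With the compared ages alone Mpeg1 was called and the other 4 were not.

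No interferon-induced gene passed the test, beside 2.58% of all genes. Of 34 such genes 27 had a log2 fold change under 0, with a median of -0.25, from -1.04 (adjusted p = 0.163) for Ifit1 to 0.38 (adjusted p = 0.919) for Mx1. edgeR called 0 of them, 1 higher and 2 lower had an unadjusted p under 0.05, and DESeq2 called 0. Of all 17067 tested genes 2819 had such an unadjusted p, in both directions together. Among 15 MHC class I genes the median was 0.20, edgeR called 0, beside the same 2.58%, 1 had an unadjusted p under 0.05 and DESeq2 called 0. Complement genes had a median of 0.44 over 20 genes, of which edgeR called 0, beside 2.58% of all genes. At an unadjusted p under 0.05, 8 were higher, beside 2819 of all 17067 genes in both directions, and DESeq2 called 1.

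The largest rises were taken from genes counted alike, of which 1.09% rose and 1.25% fell, whose ages do not overlap and whose mean reached 1 CPM, leaving out the immunoglobulin and T cell receptor segments, Igkc among them. First came Cyp24a1 (ENSMUSG00000038567.5, chr2:170482708-170497145 of GRCm38 on the minus strand), the enzyme that breaks down active vitamin D. It was at 1.65, 4.26 and 1.84 CPM at 3 months and 37.3, 18.7 and 36.7 CPM at 12 months, 3.57 ± 0.579 in log2 fold change (adjusted p = 0.0223), and at 28.0, 75.1 and 108 CPM at 24 months. Cyp27b1, which makes active vitamin D, rose as well, from 1.31, 1.95 and 2.25 CPM to 4.02, 3.77 and 4.69 CPM, 1.17 ± 0.203 in log2 fold change (adjusted p = 0.0278), and was at 20.4 to 22.997 CPM at 24 months, a log2 difference of 12 from 24 months of -2.38 (adjusted p = 0.00459). These were the only called genes among 10 of klotho, phosphate and vitamin D metabolism, beside 1.22% of all genes. Neither was called without 3-month replicate 1, 12-month replicate 1 or 12-month replicate 3 or with a replicate block, and with the compared ages alone Cyp24a1 was called and Cyp27b1 was not. Ces1g, a carboxylesterase, went from 3.65, 6.49 and 1.21 CPM to 40.2, 17.4 and 47.7 CPM, 3.21 ± 0.603 in log2 fold change (adjusted p = 0.0349). Its 12-month replicate 2 was the lowest of its age, and at 24 months it was at 6.28 to 11.6 CPM, below the 12-month kidneys.

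Another 4 rises varied little within each age and were called with any kidney left out. Neurog2, a proneural transcription factor, was at 1.65, 1.07 and 1.26 CPM and then 5.81, 6.30 and 6.25 CPM, 2.21 ± 0.190 in log2 fold change (adjusted p = 0.000752), and at 6.41, 5.93 and 6.44 CPM at 24 months. BC049987, a long non-coding RNA gene, went from 10.1, 11.0 and 8.73 CPM to 34.9, 32.1 and 34.5 CPM, 1.77 ± 0.152 in log2 fold change (adjusted p = 0.000752), and was at 15.4 to 19.96 CPM at 24 months. Ugt2a3, a glucuronosyltransferase, went from 0.630, 0.696 and 0.720 CPM to 2.39, 2.34 and 3.34 CPM, 1.97 ± 0.210 in log2 fold change (adjusted p = 0.00346). Sectm1a, a secreted and transmembrane protein of immune signalling, went from 1.29, 1.27 and 0.990 CPM to 3.85, 4.59 and 3.78 CPM, 1.78 ± 0.187 in log2 fold change (adjusted p = 0.00314). For both the 24-month kidneys were at the 12-month level or above it, with 3.22 to 3.43 and 3.93 to 4.48 CPM. Over the 6 fits that leave out a kidney, the highest adjusted p of these genes lay between 0.00668 and 0.0313.

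Colec11, a collectin of the lectin pathway of complement, rose from 0.551, 0.840 and 0.517 CPM to 2.22, 2.53 and 2.14 CPM, 1.84 ± 0.321 in log2 fold change (adjusted p = 0.0282). Angptl7, a secreted angiopoietin-like protein, rose from 4.80, 3.83 and 2.25 CPM to 17.5, 11.7 and 11.5 CPM, 1.91 ± 0.284 in log2 fold change (adjusted p = 0.0171), and its 24-month kidneys were at 4.93 to 5.62 CPM. The remaining genes of the 15 largest rises, beside Cyp4a12a, Dbp and Cd83, were A930033H14Rik, the pseudogene Pdcd5-ps and the antisense genes Gm15564 and Gm44588, with log2 fold changes of 1.98, 2.08, 2.18 and 1.69. Pdcd5-ps may share reads with its parent gene, and the strand setting of the counting is not given in the sources used here, so the reads of antisense genes may come from the other strand. Of the 15 rises 5 remained called without 12-month replicate 1 or 3-month replicate 1, 6 without 12-month replicate 3, 7 without 3-month replicate 3 and 11 without either replicate 2.

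**Figure D2:**
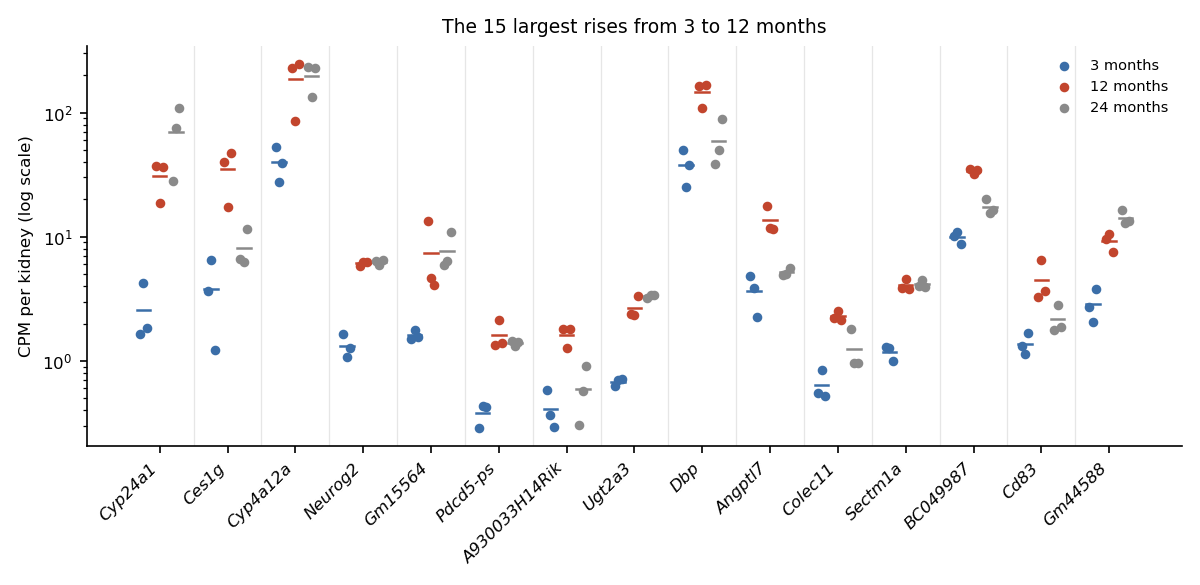
CPM of the 15 genes with the largest rises, immunoglobulin and T cell receptor segments left out (vertical axis, log scale), in each kidney of 3, 12 and 24 months, with short lines for the means. Neurog2, Ugt2a3 and Sectm1a stay at the 12-month level at 24 months, whereas the 24-month kidneys lie below the 12-month kidneys for BC049987 and Angptl7.

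Genes of the urothelium fell. All 7 tested genes of the urothelium list fell, beside 1.36% of all genes, with a median log2 fold change of -4.96. Upk3a (ENSMUSG00000022435.6, chr15:85017141-85022547 of GRCm38 on the plus strand), a uroplakin of the umbrella cell membrane, was at 29.6, 5.49 and 34.6 CPM at 3 months and 0.520, 1.14 and 0.309 CPM at 12 months, -5.13 ± 0.751 in log2 fold change (adjusted p = 0.0155). Upk1b went from 27.5, 4.38 and 25.9 CPM to 0.555, 1.003 and 0.270 CPM, and Upk2 from 13.5, 2.36 and 8.46 CPM to 0.243, 0.362 and 0.0579 CPM. The other uroplakins, Upk1a and Upk3b, had log2 fold changes of -4.12 and -3.67. Krt5, the keratin of basal urothelial cells, went from 23.7, 3.42 and 13.2 CPM to 0.312, 0.181 and 0.154 CPM, -5.94 ± 0.764 in log2 fold change (adjusted p = 0.00937), and Trp63, their transcription factor p63, had -2.12 (adjusted p = 0.0365). In each case 3-month replicate 2 was the lowest of its age and still above the 12-month kidneys.

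The same ordering of kidneys recurred in the other genes of the 15 largest falls. Krt15, Foxa1, Psca and Trim29 are genes of basal and surface epithelium, and Psca went from 55.8, 6.99 and 44.2 CPM to 0.954, 1.003 and 0.444 CPM, -5.46 ± 0.769 in log2 fold change (adjusted p = 0.0132). Krt15 went from 19.6, 5.76 and 11.3 CPM to 0.312, 0.559 and 0.116 CPM, -5.18 ± 0.647 in log2 fold change (adjusted p = 0.00795). Igfbp2, which binds insulin-like growth factors, fell from 42.5, 6.70 and 18.2 CPM to 0.468, 0.280 and 0.251 CPM, -6.06 ± 0.703 in log2 fold change (adjusted p = 0.00516), and was at 1.43 to 2.27 CPM at 24 months. Sptssb, a subunit of serine palmitoyltransferase, had the largest fall among genes counted alike, -7.08 ± 1.31 in log2 fold change (adjusted p = 0.0336), from 24.1, 0.942 and 28.4 CPM to 0.295, 0.0493 and 0.0386 CPM. Slc39a4, a zinc importer, Sprr1a, a precursor of the cornified envelope, the protease gene Tmprss13, Tmem238l and Krt19 complete the 15, with log2 fold changes of -4.84, -4.82, -4.70, -5.66 and -4.66.

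Summed over the 7 tested urothelial genes the level was 152, 25.7 and 127 CPM at 3 months, 4.02, 6.96 and 2.74 CPM at 12 months and 35.3, 21.1 and 52.8 CPM at 24 months. How much of the renal pelvis each frozen portion held is not given in the sources used here, and its part in these falls was not tested. Krt13, the remaining member, was not tested for its low counts. Without 12-month replicate 3 the 7 urothelial genes had adjusted p above 0.05, with 0.0644 for Krt5, and without 3-month replicate 2 all 7 were called. Without 3-month replicate 1 or 12-month replicate 1, 1 of the 7 was called. Leaving out 3-month replicate 3 kept 2 and leaving out 12-month replicate 2 kept 3. The compared ages alone and a replicate block each kept 1. Of the 15 largest falls 3 remained called without 12-month replicate 3, 4 without 12-month replicate 1, 8 to 15 without any other kidney and 5 with the compared ages alone. Igfbp2, Krt15 and Krt19 were called with any kidney left out.

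Some genes of the collecting duct fell. In the list of principal cell genes 4 of 14 fell, beside 1.36% of all genes, and 12 had a log2 fold change under 0, with a median of -0.72. Aqp2 (ENSMUSG00000023013.5, chr15:99579055-99584547 of GRCm38 on the plus strand), the water channel that vasopressin moves to the membrane, was at 615, 238 and 567 CPM at 3 months and 103, 105 and 104 CPM at 12 months, -2.18 ± 0.355 in log2 fold change (adjusted p = 0.0223). Avpr2, the vasopressin receptor of these cells, went from 52.0, 27.7 and 56.2 CPM to 12.7, 17.5 and 14.99 CPM, -1.59 ± 0.264 in log2 fold change (adjusted p = 0.0240). Elf5, a transcription factor of the collecting duct that was not counted alike, had -3.59 (adjusted p = 0.0485), and Krt18, a keratin of simple epithelium, had -2.21 (adjusted p = 0.0396). At 24 months Aqp2 was at 293, 162 and 248 CPM and Avpr2 at 17.3, 14.9 and 19.2 CPM. Krt8, the partner of Krt18, was at 168, 122 and 155 CPM and then 181, 109.5 and 179 CPM, 0.08 (adjusted p = 0.924). The sum of the urothelial genes moved the same way as these genes, 3-month replicate 2 being lowest of its age in both, and its part in their falls was not tested. All 4 calls were kept without 3-month replicate 2, 1 without 12-month replicate 2, and 0 without any of the other kidneys or with the compared ages alone. All 13 intercalated cell genes had a log2 fold change under 0, with a median of -0.50. edgeR called 0 of them, beside 2.58% of all genes. At an unadjusted p under 0.05, 3 were lower, beside 2819 of all 17067 genes in both directions, and DESeq2 called 1.

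**Figure D3:**
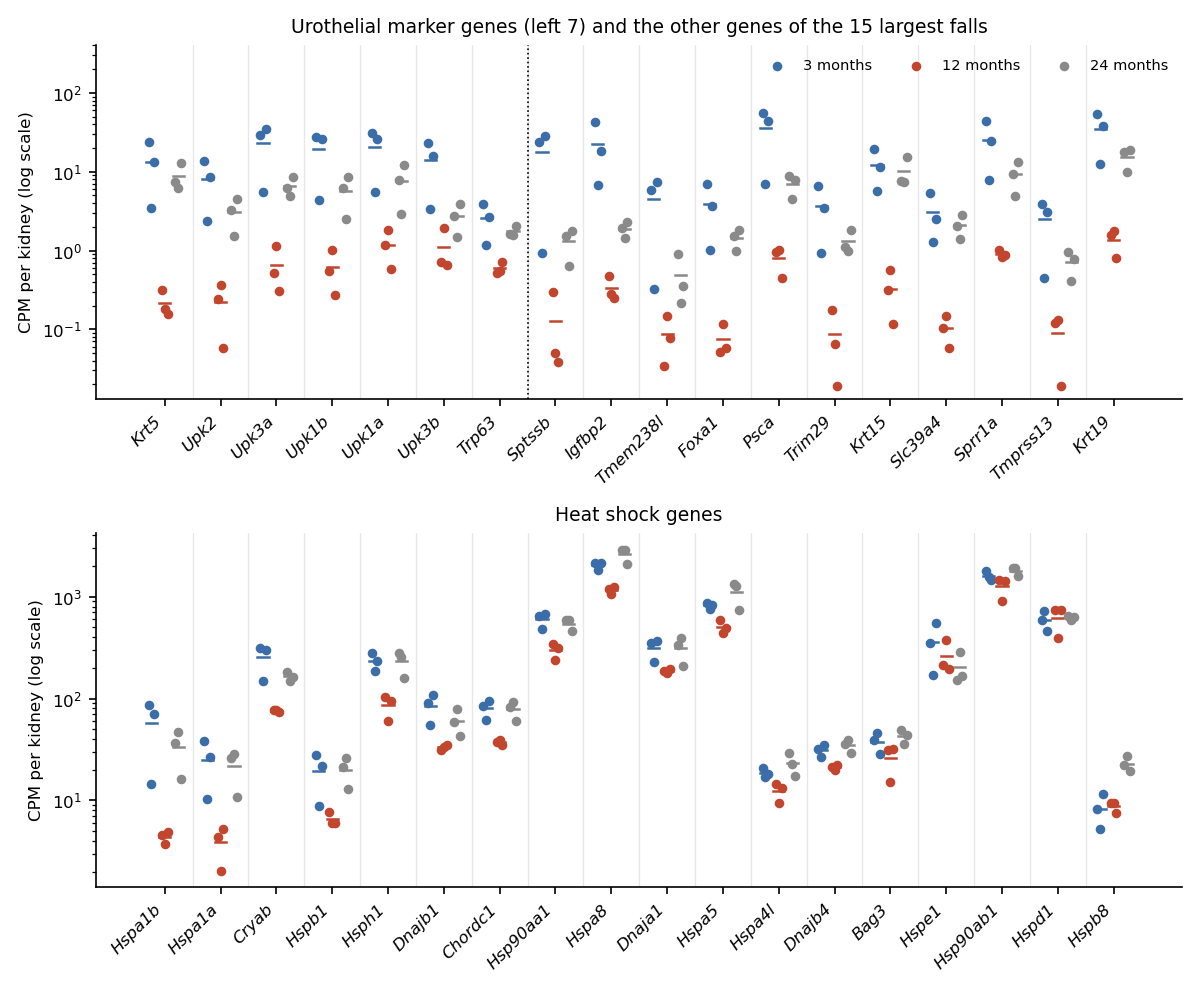
CPM (vertical axes, log scale) of urothelial genes and the other genes of the 15 largest falls, and of 18 heat shock genes, in each kidney of 3, 12 and 24 months, with short lines for the means. For each gene of the first panel the 12-month kidneys lie below the 3-month kidneys, of which replicate 2 is the lowest.

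In the loop of Henle 2 of 14 tested genes fell, beside 1.36% of all genes. Cldn19, a claudin of the paracellular pathway for calcium and magnesium, went from 35.9, 38.7 and 34.2 CPM to 20.1, 20.99 and 18.7 CPM, -0.86 ± 0.181 in log2 fold change (adjusted p = 0.0453). Bsnd, the barttin subunit of chloride channels, went from 84.0, 63.5 and 74.4 CPM to 40.1, 34.3 and 45.9 CPM, -0.88 ± 0.166 in log2 fold change (adjusted p = 0.0347). The list's median was -0.32. In the proximal tubule 1 of 26 genes was called, beside 2.58% of all genes: Slc6a19, the transporter for neutral amino acids, rose from 119, 139 and 109 CPM to 184, 242 and 243 CPM, 0.86 ± 0.170 in log2 fold change (adjusted p = 0.0374), and the median was 0.26. Without 3-month replicate 2, 1 of the 2 loop genes and Slc6a19 were called, and with any other kidney left out or the compared ages alone none of the 3 was. For distal tubule, podocyte and endothelium the medians were -0.16, -0.34 and 0.41 over 15, 13 and 18 genes. edgeR called 0 genes in these 3 lists, beside 2.58% of all genes. At an unadjusted p under 0.05 there were 1 higher and 3 lower in the distal tubule, 0 in podocytes and 2 higher and 2 lower in endothelium, and DESeq2 called 4, 0 and 2. Of all 17067 tested genes 2819 had such an unadjusted p.

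Several heat shock genes fell. Of 18 genes 8 fell, beside 1.36% of all genes, and 13 were lower in every 12-month kidney than in every 3-month kidney, beside 9.4%. The median was -0.78, and it was 0.02 for 24 against 3 months. The inducible HSP70 genes Hspa1a and Hspa1b are neighbours with nearly the same sequence, so their counts may be exchanged. Heat shock factors bind repeats of GAA, and the letters GAANNTTC were found in 7.86% of all promoters. Of the 8 genes 5 had a promoter in RefSeq and 4 of these held the letters. The promoters of Hspa1a at chr17:34972127-34972406, minus strand, Hspa1b at chr17:34959209-34959488, minus strand and Chordc1 at chr9:18292017-18292296, plus strand are shown from 250 bases before the start to 30 after it with the match in capitals, to let the near-identity of the HSP70 pair and the position of the match be seen.
Hspa1a promoter: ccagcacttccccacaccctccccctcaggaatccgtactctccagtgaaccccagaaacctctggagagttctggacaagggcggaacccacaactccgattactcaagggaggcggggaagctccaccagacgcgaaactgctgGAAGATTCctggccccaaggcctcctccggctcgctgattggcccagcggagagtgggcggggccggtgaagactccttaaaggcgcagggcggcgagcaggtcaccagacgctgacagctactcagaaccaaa
Hspa1b promoter: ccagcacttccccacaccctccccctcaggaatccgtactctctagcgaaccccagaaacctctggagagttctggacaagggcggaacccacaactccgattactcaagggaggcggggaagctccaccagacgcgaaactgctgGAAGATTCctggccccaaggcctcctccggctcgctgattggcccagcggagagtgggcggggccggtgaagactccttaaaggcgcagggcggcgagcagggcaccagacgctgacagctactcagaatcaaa
Chordc1 promoter: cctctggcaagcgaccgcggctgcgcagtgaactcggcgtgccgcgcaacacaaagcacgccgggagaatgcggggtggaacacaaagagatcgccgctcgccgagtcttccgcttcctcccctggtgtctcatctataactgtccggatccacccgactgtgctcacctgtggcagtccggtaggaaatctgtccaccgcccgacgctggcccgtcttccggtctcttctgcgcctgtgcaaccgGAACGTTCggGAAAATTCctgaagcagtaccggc
The windows of Hspa1a and Hspa1b share 276 of 280 bases, and the match starts at base -104 in both. In Chordc1, a co-chaperone gene, matches start at -4 and 6. Dnajb1 was without a match in its windows, and Hsph1 had its match after the start.

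Hspa1b was at 87.3, 14.6 and 70.0 CPM at 3 months and 4.56, 3.72 and 4.94 CPM at 12 months, -3.70 ± 0.646 in log2 fold change (adjusted p = 0.0283), and Hspa1a at 38.5, 10.4 and 26.7 CPM and 4.35, 2.02 and 5.25 CPM, -2.70 ± 0.567 in log2 fold change (adjusted p = 0.0455). At 24 months they were at 36.6, 46.5 and 16.1 CPM and 26.0, 28.6 and 10.9 CPM. The constitutive HSP70 gene Hspa8 (ENSMUSG00000015656.17, chr9:40800984-40810087 of GRCm38 on the plus strand) went from 2123, 1840.4 and 2141 CPM to 1184, 1068 and 1255 CPM, -0.80 ± 0.165 in log2 fold change (adjusted p = 0.0421), with 2868, 2906 and 2079.8 CPM at 24 months. Its 12-month kidneys are the lowest of the 9, and 12 months differed from 24 months by -1.16 (adjusted p = 0.0196). Hsph1, a nucleotide exchange factor for HSP70, went from 277, 185 and 231 CPM to 102, 60.4 and 95.1 CPM, and Dnajb1, an HSP40 co-chaperone, from 89.6, 55.0 and 108 CPM to 31.4, 33.7 and 35.2 CPM. Hsp90aa1, the inducible HSP90, had -1.004 (adjusted p = 0.0396), Chordc1 -1.11 (adjusted p = 0.0349) and the small heat shock protein Cryab -1.74 (adjusted p = 0.0189).

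All 8 of these genes were called by DESeq2 and without 3-month replicate 2, and none with any of the other 5 kidneys left out, where the highest adjusted p of Hspa8 was 0.176. With the compared ages alone or a replicate block 0 of the 8 were called. Beside the chaperones, Asns, the asparagine synthetase gene induced by ATF4, was the only one of 20 genes of the unfolded protein response to pass, beside 1.36% of all genes, with -1.30 (adjusted p = 0.0278) and a list median of -0.40. It was called in 1 of 6 fits with a kidney left out, with adjusted p up to 0.120, and not with the compared ages alone. Hspb8 stood at the other end of the heat shock list, with 0.08 (adjusted p = 0.936).

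Clock genes differed in both directions. Dbp (ENSMUSG00000059824.12, chr7:45705088-45710203 of GRCm38 on the plus strand), a transcription factor driven by CLOCK and BMAL1, was at 50.2, 25.3 and 37.7 CPM at 3 months and 165, 109 and 166 CPM at 12 months, 1.956 ± 0.361 in log2 fold change (adjusted p = 0.0336). Bhlhe41, a repressor of the clock, rose from 1.71, 1.21 and 1.12 CPM to 4.46, 2.76 and 3.63 CPM, 1.43 ± 0.303 in log2 fold change (adjusted p = 0.0468). Arntl, which codes for BMAL1, fell from 6.75, 11.4 and 6.39 CPM to 1.47, 1.43 and 1.97 CPM, -2.33 ± 0.406 in log2 fold change (adjusted p = 0.0282), and Nfil3, a repressor of the same target sites as Dbp, fell from 14.6, 28.3 and 19.0 CPM to 2.55, 1.55 and 4.73 CPM, -2.81 ± 0.592 in log2 fold change (adjusted p = 0.0455). Of 20 clock genes 2 rose and 2 fell, beside 1.22% and 1.36% of all genes. The time of day at which each kidney was taken is not given in the sources used here, and its part in these differences was not tested. With each kidney left out in turn Dbp was called in 2 of 6 fits, Arntl in 1, and Bhlhe41 and Nfil3 in none, with adjusted p up to 0.104, 0.102, 0.147 and 0.151.

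Of the proximal tubule genes that differ between the sexes, 2 of 15 male-biased and 2 of 8 female-biased ones rose, beside 1.22% of all genes. Cyp4a12a, a fatty acid hydroxylase induced by androgen, rose from 53.2, 27.4 and 39.1 CPM to 228, 85.4 and 247 CPM, 2.23 ± 0.427 in log2 fold change (adjusted p = 0.0366), with 12-month replicate 2 the lowest of its age. Slco1a1, an organic anion transporter, rose from 506, 406 and 508 CPM to 685, 842 and 886 CPM, 0.77 ± 0.166 in log2 fold change (adjusted p = 0.0489), and was at 159, 165 and 198 CPM at 24 months. At 24 months it was thus below both younger ages, with a difference of 12 from 24 months of 2.21 (adjusted p = 0.00391). The median of the male-biased genes was 0.37. Among 8 female-biased genes Cyp2a4 and Cyp2a5, steroid and xenobiotic hydroxylases, rose with 0.62 (adjusted p = 0.0494) and 1.65 (adjusted p = 0.0176), while 5 of the 8 had a log2 fold change under 0, down to -1.78 (adjusted p = 0.0658) for the exporter gene Abcc3, and the median was -0.07. Cyp2a5 went from 69.2, 125 and 77.7 CPM to 273, 259 and 321 CPM and was at 122, 93.1 and 132 CPM at 24 months. Cyp2a4 and Cyp2a5 are near-identical copies and may share reads. Of the male-biased calls 1 was kept without 12-month replicate 2 and 0 without any other kidney, of the female-biased calls 2 were kept without 3-month replicate 2, 1 without 12-month replicate 2 and 0 otherwise, and the compared ages alone gave 0 in both lists.

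**Figure D4:**
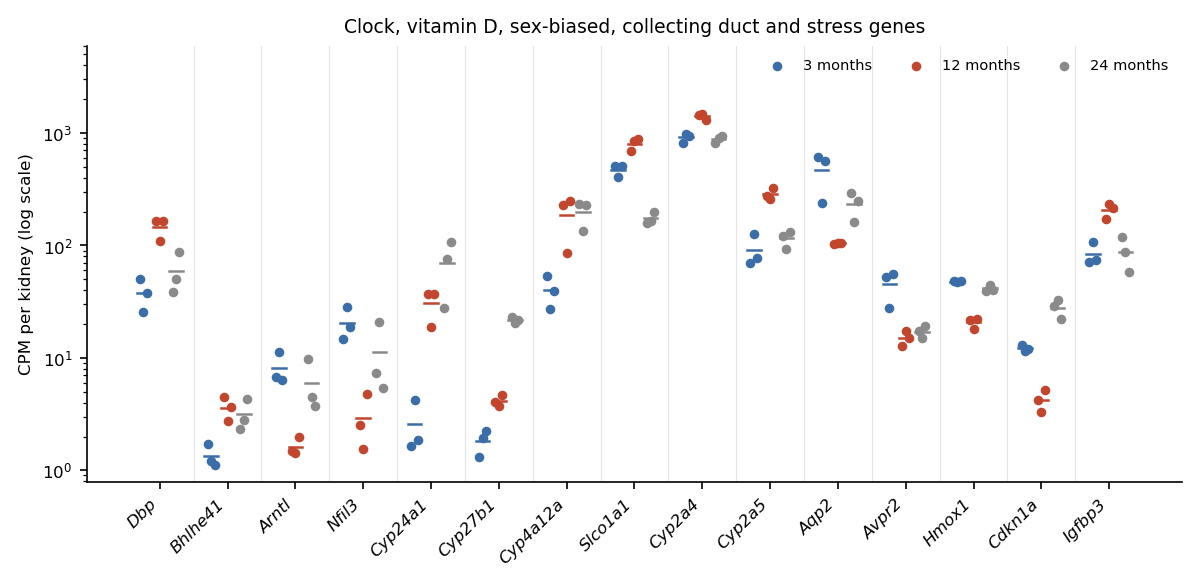
CPM (vertical axis, log scale) of 15 named genes in each kidney of 3, 12 and 24 months, with short lines for the means. For Dbp, Slco1a1, Cyp2a4, Cyp2a5 and Igfbp3 the 12-month kidneys are the highest of the 9, and for Arntl, Nfil3, Aqp2, Hmox1 and Cdkn1a they are the lowest.

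Among genes of cell cycle arrest and stress, Cdkn1a, Gdf15 and Hmox1 fell. Cdkn1a (ENSMUSG00000023067.14, chr17:29090976-29100727 of GRCm38 on the plus strand), which codes for the cell cycle inhibitor p21, was at 12.9, 11.5 and 12.1 CPM at 3 months and 4.20, 3.27 and 5.17 CPM at 12 months, -1.53 ± 0.208 in log2 fold change (adjusted p = 0.0110). At 24 months it was at 28.9, 33.0 and 22.1 CPM, above both younger ages, and 12 months differed from 24 months by -2.73 (adjusted p = 0.00391). The fall of Cdkn1a was called in 4 of the 6 fits that leave out a kidney, with adjusted p up to 0.0611, and had an adjusted p of 0.0525 with a replicate block. Cdkn1a was not counted alike at 3 and 12 months. Its identifier has another version, and the overlapping gene AC167363.2 on the other strand, in the set of the older kidneys alone, had 0 counts in each 12-month kidney. Cdkn2a, the gene of p16, was not tested, with 0, 0 and 2 counts at 3 months, 1, 3 and 0 at 12 months and 15, 3 and 3 at 24 months.

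Of 23 p53 target genes, 18 of which had a log2 fold change under 0, Gdf15 and Aen fell, beside 1.36% of all genes. Without 3-month replicate 2, 1 of these calls was kept, and 0 without any other kidney, with the compared ages alone or with a replicate block. Gdf15, a secreted stress factor, went from 9.48, 6.00 and 12.7 CPM to 3.85, 3.67 and 3.55 CPM, -1.35 ± 0.280 in log2 fold change (adjusted p = 0.0448), and was at 23.3, 28.4 and 17.1 CPM at 24 months. Aen, an exonuclease of apoptosis, had -0.69 (adjusted p = 0.0381). Of 30 proliferation genes 1 fell, beside 1.36% of all genes: Mcm5, a subunit of the replicative helicase, with -0.69 (adjusted p = 0.0455). Their median was -0.48 here, whereas for 24 against 3 months it was 1.25, and Mki67, which marks cycling cells, was at 1.63, 2.44 and 1.75, then 1.82, 1.28 and 1.66 and then 10.2, 9.57 and 5.36 CPM. Secreted factors linked to senescence had a median of 0.24 over 30 genes. Of these 1 rose and 1 fell, beside 1.22% and 1.36% of all genes. Igfbp3, which binds insulin-like growth factors, rose from 71.3, 107 and 74.1 CPM to 171, 233 and 214 CPM, 1.29 ± 0.278 in log2 fold change (adjusted p = 0.0489), and Igfbp2 fell. With kidneys left out Mcm5 was called in 0 of 6 fits and Igfbp3 in 1, with adjusted p up to 0.182 and 0.209, and neither was called with the compared ages alone or a block.

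Hmox1, the heme oxygenase induced by NRF2, varied little within each age. It went from 48.3, 47.0 and 48.0 CPM to 21.9, 18.2 and 22.2 CPM, -1.20 ± 0.132 in log2 fold change (adjusted p = 0.00376), was at 39.5, 44.7 and 40.3 CPM at 24 months, and was called with any kidney left out, with adjusted p up to 0.0313. It was the only called gene of 21 NRF2 targets, beside 1.36% of all genes that fell. Among 18 tested genes of tubular injury Lcn2, Krt19 and Sprr1a fell, beside 1.36% of all genes, and Il34 rose, beside 1.22%. Of the 18 genes 15 had a log2 fold change under 0, with a median of -0.77. Lcn2, the lipocalin NGAL, went from 12.2, 5.18 and 15.3 CPM to 3.87, 2.45 and 3.03 CPM, -1.80 ± 0.361 in log2 fold change (adjusted p = 0.0396), and Il34, a ligand of the macrophage receptor CSF1R, from 15.3, 16.6 and 17.2 CPM to 39.6, 28.8 and 38.7 CPM, 1.12 ± 0.182 in log2 fold change (adjusted p = 0.0223). With kidneys left out Lcn2 was called in 1 of 6 fits and Il34 in 2, with adjusted p up to 0.155 and 0.118, and neither was called with the compared ages alone or a block. Krt19 and Sprr1a are also genes of surface epithelia and had the order of kidneys of the urothelial genes. Havcr1, the injury marker KIM-1, was at 11.8, 3.30 and 24.2 CPM at 3 months and 4.30, 12.6 and 5.42 CPM at 12 months, -0.81 (adjusted p = 0.652), with overlapping ages, and Krt7 had -0.98 (adjusted p = 0.0505).

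The 12-month kidneys also stood apart from both other ages for some genes. Against the mean of 3 and 24 months, 147 genes were higher, 0.861% of the tested genes, and 157 were lower, 0.92%. At 12 months 4.03% of tested genes lay above all other 6 kidneys and 4.65% below them. Among genes of the first kind that were counted alike, the largest differences upward were those of Ces1g, 2.65 (adjusted p = 0.0346), 9530018F02Rik, 1.69 (adjusted p = 0.0209), Angptl7, 1.65 (adjusted p = 0.0197), and Dbp, 1.64 (adjusted p = 0.0362). They were followed by Slco1a1, 1.49 (adjusted p = 0.00316), Cyp2a5, 1.47 (adjusted p = 0.0193), Upp2, 1.46 (adjusted p = 0.0222), and Col19a1, 1.41 (adjusted p = 0.0431). Upp2, the uridine phosphorylase of liver and kidney, was at 20.2, 23.6 and 24.5 CPM at 3 months, 37.3, 60.2 and 48.8 CPM at 12 months and 9.47, 18.5 and 13.3 CPM at 24 months, so that 12 months was highest.

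By the same rule downward, Krt14, a keratin of basal cells, came first, with 1, 3 and 1 counts at 12 months, 111, 37 and 84 at 3 months and 61, 113 and 177 at 24 months. From the pooled counts its level at 3 months was 60.2 times that at 12 months (95% interval 25.4 to 187, counting error only). Krt5, Krt15, Foxa1, Trim29, Slc39a4, Upk2 and Psca came next, with log2 differences from -5.64 for Krt5 to -4.30 for Psca. Since 12 and 24 months share a gene set, the difference in gene sets enters this contrast through the 3-month kidneys alone. With each of the 9 kidneys left out in turn, the counts lay between 9 and 195 upward and between 6 and 340 downward.

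Some of the widest differences of all belonged to genes that were not counted alike, of which 43 rose and 41 fell, 2.43% and 2.31% of 1772 and 4.74% together. Hgs, which sorts ubiquitinated receptors at endosomes, had 0, 0 and 0 counts at 3 months and 3286, 1616 and 3020 at 12 months, at least 683-fold higher over a floor of 3 counts per library. The 3-month set holds another identifier of the name Hgs at an overlapping position, which also had 0 counts in each 3-month kidney. Fam220a had 760, 760 and 992 counts at 3 months and 2, 3 and 1 at 12 months, and there the set of the older kidneys holds another Fam220a, with 0 counts in each of these. Brms1 and B4gat1, which overlap the gene AC124502.3 of the older kidneys' set, had log2 fold changes of -8.65 and -7.65, and AC124502.3 had 2, 3 and 5 counts at 12 months. CT010467.1 (11.56), Wdr74 (4.72), Cfap43 (-7.17) and Vmn2r57, at least 19.0-fold higher, make up the rest of the 8 most extreme. Cfap43 had 185, 435 and 213 counts at 3 months and 2, 4 and 1 at 12 months. It overlaps Itprip of the older kidneys' set on the same strand, with 444, 403 and 496 counts at 12 months. CT010467.1 overlaps Gm42418 of the 3-month set on the other strand, with 27972, 40063 and 32843 counts at 3 months. In all 8 the 24-month kidneys, counted as the 12-month kidneys were, were closer to the latter than to the 3-month kidneys, and gene set and age cannot be told apart.

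The remaining lists held few calls or none. In the lists of matrix genes, fibroblasts and pericytes, and adipocytes 1 of 31, 1 of 18 and 1 of 13 tested genes fell, beside 1.36% of all genes. They were Tnc, an extracellular glycoprotein, with -1.34 (adjusted p = 0.0494), Cnn1, a calponin of contractile cells, with -1.73 (adjusted p = 0.0421), and Lpl, the lipoprotein lipase, with -0.83 (adjusted p = 0.0374). Tnc and Cnn1 were called without 3-month replicate 2 but not with any other kidney left out, Lpl in 0 of these 6 fits, and none of the 3 with the compared ages alone or a block. Lpl went from 1479, 2002 and 1773 CPM to 982, 836 and 1129 CPM. Ucp1, the uncoupling protein of brown fat, was at 12.996, 0.184 and 30.3 CPM and then 0, 0.0822 and 0 CPM, -8.85 (adjusted p = 0.0893), so that fat markers differed between kidneys. Fosl1, an AP-1 subunit not counted alike, had 5, 2 and 8 counts at 3 months and 0, 0 and 0 at 12 months, with a fitted difference that passed the test (adjusted p = 0.0483), and did so in 1 of 6 fits with a kidney left out. mt-Co2 rose with 1.54 (adjusted p = 0.00516), but at 6.78 to 7.29 CPM at 12 months it was far below mt-Co1, at 23670.0 to 29171 CPM, and nuclear copies may share its reads.

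For ribosomal proteins, nuclear oxidative phosphorylation and fatty acid oxidation the medians were -0.20, -0.14 and -0.18 over 40, 33 and 32 genes. edgeR called 0 genes in these 3 lists, beside 2.58% of all genes. At an unadjusted p under 0.05 there were 0, 0 and 5, beside 2819 of all 17067 genes, and DESeq2 called 0, 0 and 3. In cholesterol synthesis and the renin-angiotensin system the medians were -0.02 and 0.12. edgeR called 0 genes in both lists, beside the same 2.58%, 4 and 3 had an unadjusted p under 0.05, beside the same 2819 genes, and DESeq2 called 1 and 0. The renin gene Ren1 was at 103, 121 and 121 CPM at 3 months and 81.2, 43.3 and 66.6 CPM at 12 months, -0.85 (adjusted p = 0.129).

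**Figure D5:**
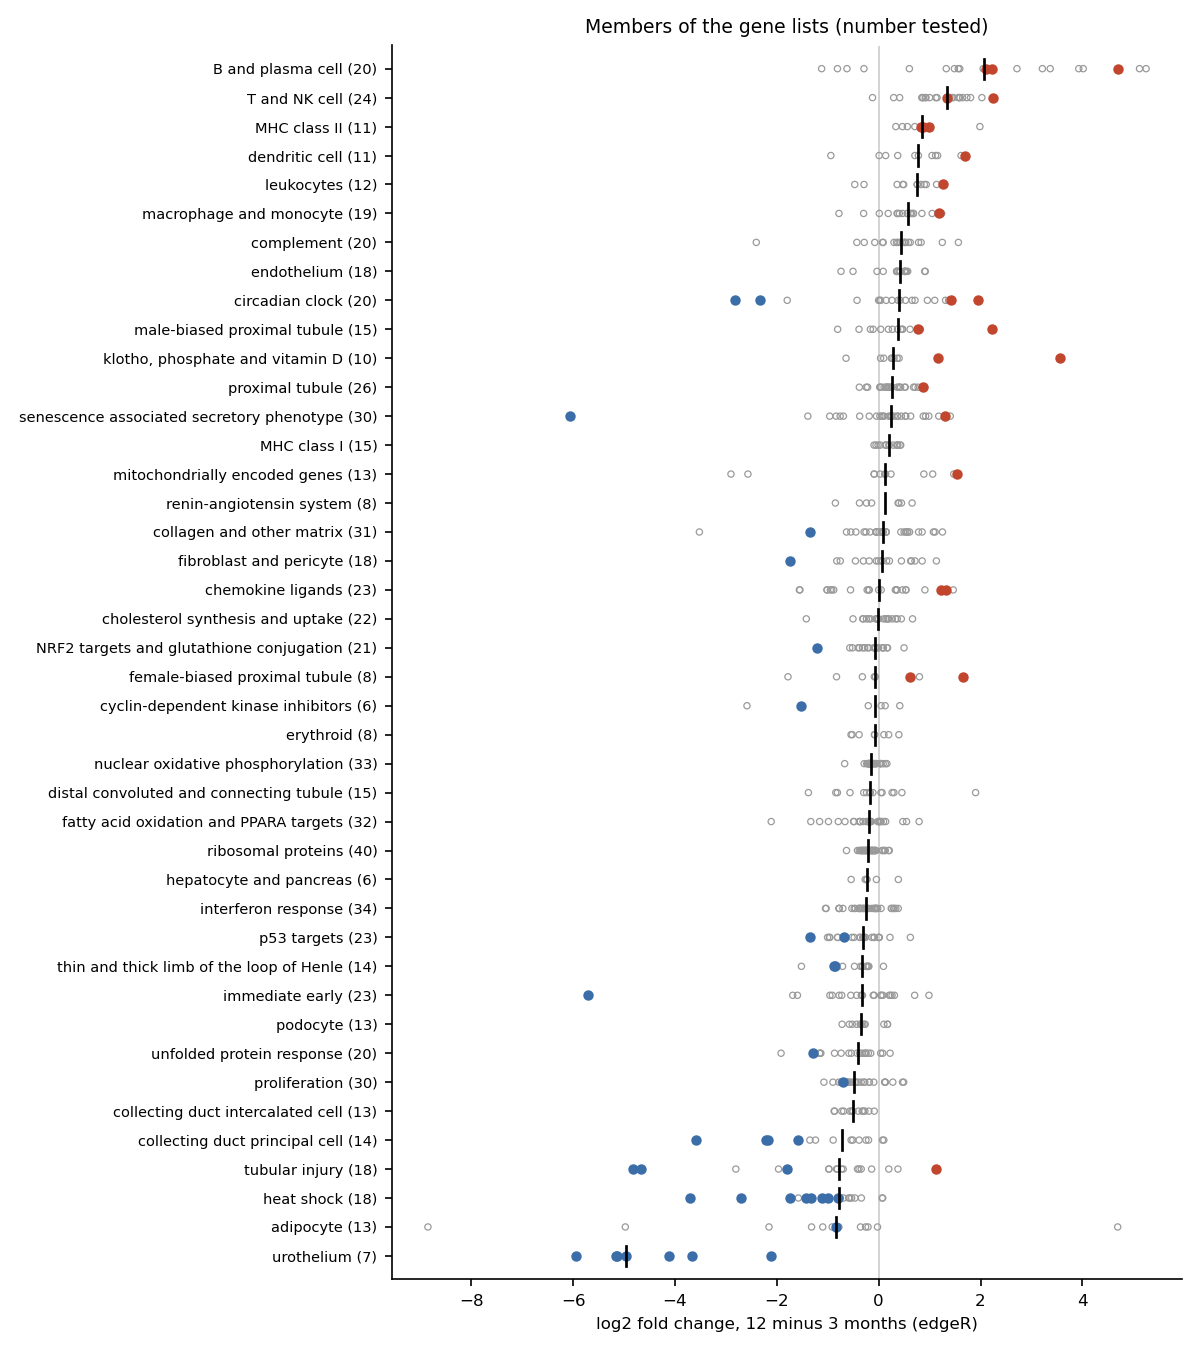
Log2 fold change of 12 against 3 months from edgeR (horizontal axis) for the tested members of 42 gene lists, with the number tested in brackets. Filled red points rose, filled blue points fell, open points did not pass the test, and black bars are list medians, from -4.96 for urothelium to 2.08 for B and plasma cells.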

How the data were processed

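RNA of whole mouse kidneys was sequenced from poly(A)-selected, strand-specific libraries. The authors deposited raw counts per gene for each kidney, made with nf-core/rnaseq 1.4.2 on GRCm38 by the study's account, which names GENCODE M18. The aligner, the counter and its strand setting are not given in the sources used here. The 3-month files list 54146 gene identifiers and the older kidneys' files 55401, and 53772 are shared once versions are dropped. Identifiers of 1 set alone, 374 and 1629, were not compared. Symbols and positions come from GENCODE M21 on GRCm38, and promoters from RefSeq (GRCm38.p6).

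Counts of 9 kidneys were filtered with filterByExpr, scaled by TMM and fitted by edgeR 4.0.16 (R 4.3.3, limma 3.58.1) with robust quasi-likelihood and Benjamini-Hochberg adjustment over 17067 genes. The 9 kidneys, 3 mice per age, share 1 estimate of the spread. The contrasts were 12 minus 3 months, and 12 months minus the mean of 3 and 24 months. With 3 kidneys against 3, an exact test of a single value cannot go below 0.1. On simulated counts of 17067 genes for 12 minus 3 months, 15 of 100 genes changed 2-fold and 75 of 100 changed 4-fold were recovered, with 5 false calls.

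Genes were named by rule: the 15 largest rises and falls with a mean of at least 1 CPM, counted alike, with ages that do not overlap and without immunoglobulin and T cell receptor segments, the 8 in each direction of the second contrast, the 4 per direction among genes not counted alike, genes of the study's bulk analysis, and the called and most extreme members of 44 lists (826 members, 778 tested). Other members named are examples chosen after their values were seen. Some list members are not reported here. The members and lists were chosen with earlier results of these data known. Alternatives were DESeq2 1.42.0, RLE scaling, no filter, the compared ages alone, a replicate block, other fold thresholds, genes counted alike, no immunoglobulin or T cell receptor segments, and each kidney left out. Python 3.11.15, pandas 2.3.3, numpy 2.4.6, scipy 1.17.1 and matplotlib 3.10.9 were used for joins, intervals and plots. Intervals and floors cover counting error only.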

Additional observations from a re-analysis of the deposited data

Results flagged for a closer look

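Reads of Gm42418, a long non-coding RNA gene on chromosome 17 that only the 3-month gene set holds, lay outside the joined table. It had 27972, 40063 and 32843 counts in 3-month replicates 1, 2 and 3. The overlapping CT010467.1 on the other strand had 12, 13 and 18 counts in the same kidneys and 90824, 52472 and 28627 at 12 months.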

How the results depend on the processing

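Of 102 named differences recomputed under the alternatives, Krt8 alone changed direction, while the number of calls was not stable. Against 209 rises and 232 falls between 3 and 12 months, and 147 and 157 against the mean of 3 and 24 months, DESeq2 called 531, 576, 353 and 515, and a replicate block 52, 66, 11 and 16. The compared ages alone gave 38 and 26. Among genes counted alike, fitted on their own, 126 rose, and 86 and 90 were called in the second contrast. A log2 fold change beyond 1 left 83 genes higher in the second contrast. Leaving out single kidneys gave 31 to 249 rises and 21 to 467 falls, and 9 to 195 and 6 to 340 in the second contrast, lowest without 12-month replicate 3 and highest without 3-month replicate 2. Krt8, at 0.0755 and not called, went from -0.0426 to 0.281 in log2 fold change with kidneys left out. Of the list members named beside these, Mx1 (-1.21 to 1.45) and Hspb8 (-0.167 to 0.385), neither called, also changed sign with a kidney left out. Of 428 recomputed medians of 43 lists, 21 had another sign and 11, in 10 lists, moved by more than the spread between kidneys. The cause was not tested. Of 91 called named genes, 91 were called by DESeq2, 32 with the block and 24 by the compared ages alone. Kidneys of the same number did not deviate together (correlations across genes of -0.0486, -0.701 and -0.615), so the numbers do not pair them. Between kidneys of different numbers the correlations ran from -0.51 to 0.747. The highest was that of 3-month replicate 3 with 12-month replicate 2, and its cause was not tested. With 3 kidneys per age, 2-fold changes were mostly missed in the simulation.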
